A study of Mus musculus with 8 samples.

Results

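The 10 genes described here lie on mouse chromosome 10 within 20 Mb of Tet1, the gene targeted in the knockout (KO) mice of the study. They are Zfp365, Zfr2, A930033H14Rik, Aire, Ankrd24, Mif, Cd24a, Pfkl, Ppa1 and Tle2. Each was found by its symbol as 1 row of the deposited count table, so they are 10 of 55471 gene entries. All 10 passed the filter on low counts and are among the 22153 genes tested. They were picked with their KO against wild-type (WT) values already known: these values are therefore given as descriptions, with no test.

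RNA was sequenced in bulk from 2 cell populations of the femur of newborn mice, taken on day 3 to 5 and purified by cell sorting. The populations were skeletal stem cells, called SSC, and progenitors of bone, cartilage and stroma, called BCSP. BCSP are a more committed population that skeletal stem cells are known to give rise to. The 4 groups were WT SSC, Tet1 KO SSC, WT BCSP and Tet1 KO BCSP, with 2 libraries in each. The titles number these libraries round 1 and round 2, and the labels do not say whether rounds are litters, sorts or sequencing runs, nor how many animals a library pools. All 8 libraries, WT included, carry 1 strain name, B6;129S4-Tet1tm1.1Jae/J, a mixed C57BL/6 and 129S4 background. Where nothing says that libraries came from separate animals, p-values measure only the spread between these libraries. In bulk RNA, fewer cells of a type and less RNA per cell cannot be told apart.

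TET1 is a dioxygenase that oxidises 5-methylcytosine, mostly at CpG sites, and so takes part in removing DNA methylation. A targeted allele made in 129-strain embryonic stem cells keeps 129 sequence around it when it is crossed into another strain, and recombination shortens that segment over generations. Genes linked to the target can therefore differ between KO and WT littermates by strain of origin. No file used here separates alleles, so an effect of losing Tet1 and a difference carried by linked 129 sequence cannot be told apart for any of the 10 genes.

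"Flanking" holds loosely for these genes. Only 2 of the 10 lie within 5 Mb of Tet1 (GRCm38, chr10:62804570-62908996, minus strand), 3 lie within 10 Mb and 7 lie farther than 10 Mb. The nearest, Ppa1, is 1.13 Mb away, and 36 tested genes lie nearer. On the side of lower coordinates are Ppa1 and, at 19.22 Mb, Cd24a. On the other side are Zfp365 at 4.98 Mb, A930033H14Rik at 6.30 Mb, Mif at 12.95 Mb, Pfkl at 15.1 Mb and Aire at 15.1 Mb, then Zfr2 at 18.3 Mb, Tle2 at 18.7 Mb and Ankrd24 at 18.7 Mb. At the window's edge, Sec63 (19.97 Mb) and Txnrd1 (19.93 Mb) lay just inside, with log2 fold changes over both populations of 0.13 ± 0.18 (SE) and 0.23 ± 0.15. Ostm1 (20.1 Mb) and Chst11 (20.1 Mb) lay just outside, at 0.37 ± 0.28 and -0.30 ± 0.16.

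Promoter sequences are shown because TET1 acts on CpG sites and because members were counted together in 2 directions. They come from RefSeq on GRCm38.p6 and run from 250 bases before to 50 after the transcription start, 5′ to 3′ on the gene's strand, with CpG in capitals. Of the 10 genes, 9 matched the promoter table, and Cd24a did not. The first pair holds the fewest and the most CpG among the matched genes, and both were counted higher in KO: Zfp365 with 8 CpG (chr10:67912613-67912912, minus strand) and A930033H14Rik with 46 (chr10:69213049-69213348, minus strand).
Zfp365: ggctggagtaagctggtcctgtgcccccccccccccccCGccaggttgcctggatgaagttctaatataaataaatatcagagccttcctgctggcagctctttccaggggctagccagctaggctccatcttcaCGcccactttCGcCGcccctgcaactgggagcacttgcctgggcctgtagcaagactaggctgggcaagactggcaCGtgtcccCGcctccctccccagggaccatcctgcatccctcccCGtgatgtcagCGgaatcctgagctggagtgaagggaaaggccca
A930033H14Rik: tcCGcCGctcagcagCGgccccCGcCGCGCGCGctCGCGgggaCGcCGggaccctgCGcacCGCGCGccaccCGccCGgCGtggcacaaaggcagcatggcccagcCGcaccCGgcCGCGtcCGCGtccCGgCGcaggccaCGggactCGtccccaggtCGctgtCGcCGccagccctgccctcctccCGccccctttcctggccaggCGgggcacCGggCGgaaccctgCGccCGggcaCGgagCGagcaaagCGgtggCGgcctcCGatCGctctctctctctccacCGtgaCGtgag

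The second pair is Zfr2, counted higher in KO, and Mif, counted lower. These were the 2 genes whose promoters hold the palindrome TGACGTCA, the full cAMP response element, once each. Zfr2 has 22 CpG (chr10:81232913-81233212, plus strand) and Mif has 14 (chr10:75860228-75860527, minus strand).
Zfr2: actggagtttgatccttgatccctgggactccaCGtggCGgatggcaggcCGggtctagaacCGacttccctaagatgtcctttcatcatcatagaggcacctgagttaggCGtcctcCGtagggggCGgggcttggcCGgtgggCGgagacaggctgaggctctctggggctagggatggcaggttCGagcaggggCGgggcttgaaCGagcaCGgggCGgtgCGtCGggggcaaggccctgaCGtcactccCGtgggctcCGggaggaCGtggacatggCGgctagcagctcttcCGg
Mif: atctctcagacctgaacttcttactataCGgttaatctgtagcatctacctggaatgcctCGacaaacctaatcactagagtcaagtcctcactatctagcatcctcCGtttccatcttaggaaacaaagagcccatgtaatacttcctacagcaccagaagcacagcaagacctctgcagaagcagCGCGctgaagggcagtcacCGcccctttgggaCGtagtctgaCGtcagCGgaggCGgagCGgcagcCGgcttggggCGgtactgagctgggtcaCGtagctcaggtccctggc

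The other promoters hold 16 CpG in Aire, 20 in Pfkl, 28 in Tle2, 38 in Ppa1, and 9 and 12 in the 2 promoters listed for Ankrd24. The median was 7 over all 32851 promoters in the table and 17 over the 17517 of tested genes. The genes counted higher in KO (8 to 46 CpG) and those counted lower (14 to 38) overlapped in CpG number. TGACGTCA, which reads the same on both strands, stands in 1.79% of all promoters and 2.66% of those of tested genes. TATAAA, searched on both strands, was found in Zfp365 and Aire, against 13.6% of all promoters and 8.72% of those of tested genes. Methylation was not measured here, and a match of letters is a description of the sequence only.

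Library totals ran from 104782544 to 168004119 counts. Levels are given as CPM, counts per 1000000 after TMM scaling of library size, and 1 CPM stood for more than 100 counts in each library. Log2 fold changes are KO minus WT from an edgeR quasi-likelihood fit. Tet1 was counted at 15.6 and 19.6 CPM in WT SSC (round 1, then round 2), 7.26 and 11.8 in KO SSC, 21.6 and 10.98 in WT BCSP and 10.8 and 11.97 in KO BCSP. The library labelled WT BCSP round 2 thus lay within the KO range for Tet1, and gene totals cannot show which exons a transcript lacks. That library also had the lowest TMM factor, 0.854 against 0.944 to 1.06. Over 12636 genes, its deviation from the mean of all libraries correlated with exon length at Spearman -0.50, against -0.24 to 0.36 in the other 7. The BCSP values of the 10 genes are given with and without it. Those of other genes in the window, of neighbours and of lists rest on it too and are given with it. The libraries carried cartilage markers: Col2a1, the main cartilage collagen gene, stood at 234839 to 324253 CPM, and Eng, a surface marker known from BCSP, at 2.53 to 3.89 CPM in SSC and 25.7 to 50.5 in BCSP. Summed blood markers were highest in WT SSC round 1, with the 9 neutrophil genes at 187 CPM against 0.139 to 51.4 elsewhere. The summed level of 4 Y-linked genes was 41.9 to 71.7 CPM in WT and 98.0 to 149 in KO, and the labels do not state the sex of the animals. Xist, on the X chromosome, stood at 441 and 560.5 CPM in WT SSC and 75.0 and 291 in KO SSC. In BCSP it stood at 621 and 277 CPM in WT and 231 and 275 in KO, a log2 fold change over both populations of -1.14 ± 0.40. The summed level of the 5 skeletal muscle markers also separated by genotype, at 12.1 to 26.3 CPM in WT and 8.27 to 11.9 in KO. Acta1 and Tnnt3 made up most of it, and Myod1, a defining muscle factor gene, stood at 0.00874 to 0.903 CPM. The parts of length, blood cells, muscle and sex in the values below were not tested, except where a value without the library or the length trend is given.

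**Figure D1:**
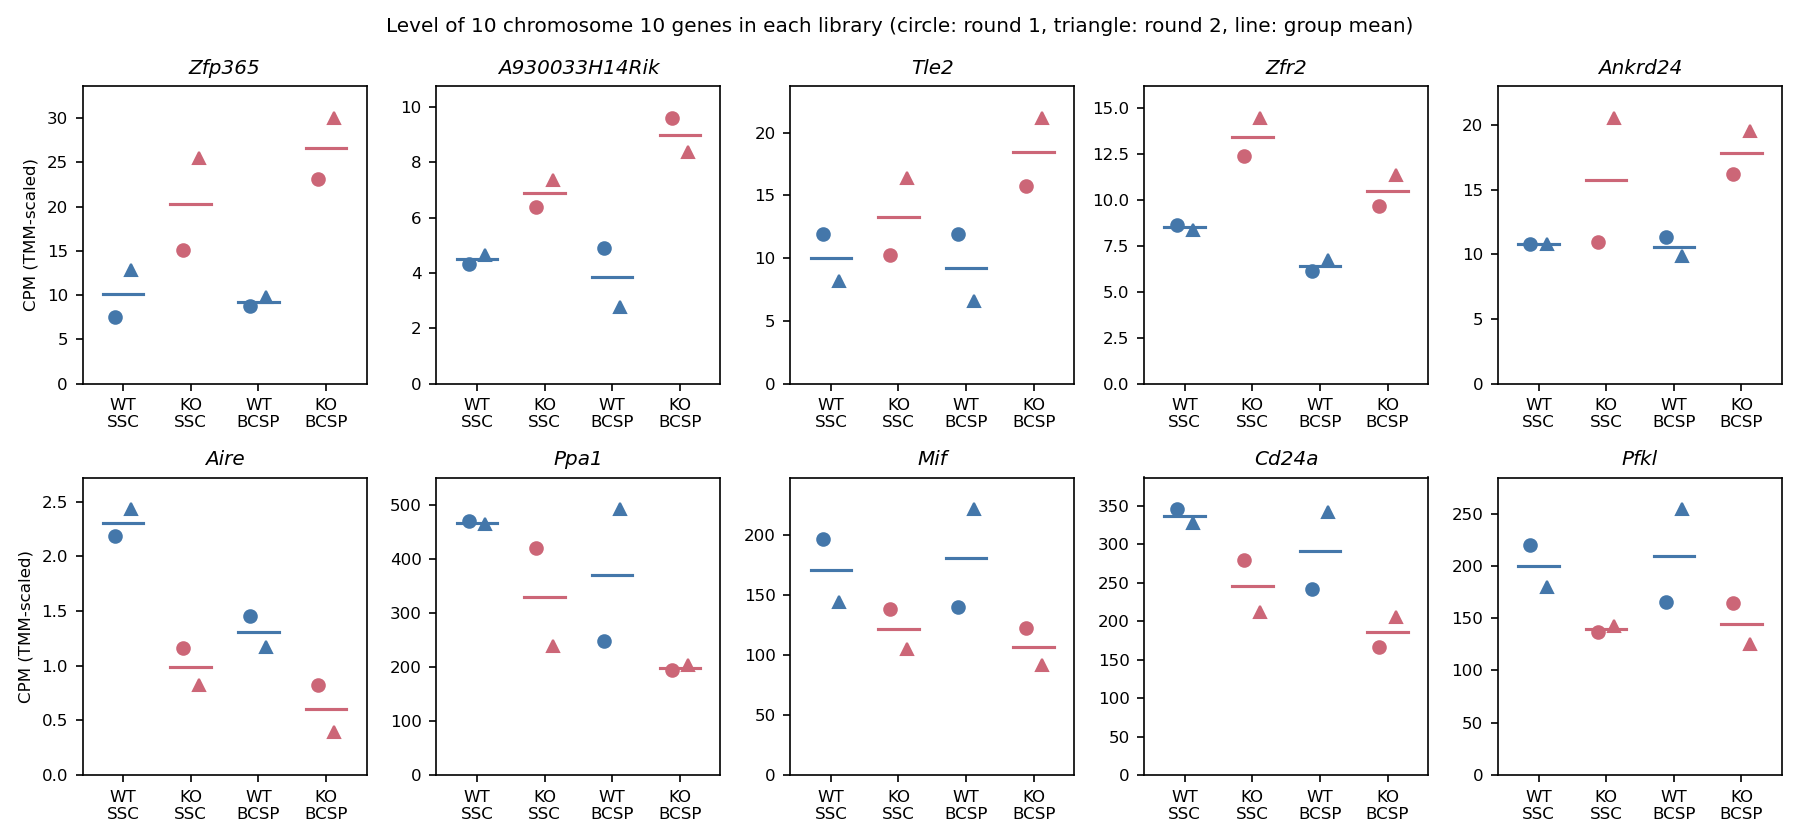
Level of each gene in CPM (linear axis from 0) in the 4 groups; circles are round 1, triangles round 2 and lines group means of 2 libraries. The upper row shows the 5 genes counted higher in KO and the lower row the 5 counted lower; in Zfp365, Zfr2, A930033H14Rik, Aire, Mif and Pfkl the 4 KO and 4 WT libraries do not overlap.

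Zfp365 encodes a coiled-coil zinc-finger protein linked to DNA repair and known to bind DISC1 in neurons. It was counted at 7.49 and 12.9 CPM in the WT SSC libraries and at 15.1 and 25.5 in KO SSC. In BCSP it stood at 8.77 and 9.77 CPM in WT and at 23.2 and 30.03 in KO. Every KO library thus lay above every WT library, which held for 2.13% of all tested genes in this direction. The log2 fold change was 0.99 ± 0.32 in SSC and 1.52 ± 0.32 in BCSP, and 1.60 in BCSP without the library labelled WT BCSP round 2. The SSC value ran from 0.55 (without KO SSC round 2) to 1.44 (without WT SSC round 2), and was 0.66 without WT SSC round 1. The mean over all libraries went from 9.72 ± 2.29 CPM in WT (SD, n = 4) to 23.4 ± 6.27 in KO, a ratio of 2.41.

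A930033H14Rik is a short gene annotated as protein coding that lies wholly within the span of Rhobtb1, on the opposite strand. Their exons share 15 bases, and no source used here states the strand of counting. It stood at 4.33 and 4.64 CPM in WT SSC and at 6.39 and 7.37 in KO SSC. In BCSP the WT libraries stood at 4.91 and 2.78 CPM and the KO libraries at 9.61 and 8.37. The 2 genotypes did not overlap. Its log2 fold change was 0.62 ± 0.32 in SSC and 1.23 ± 0.33 in BCSP, and the latter was 0.87 without the library labelled WT BCSP round 2, its lowest value.

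Zfr2 encodes a zinc-finger RNA-binding protein with a DZF domain, a relative of the splicing factor Zfr. WT SSC libraries stood at 8.65 and 8.36 CPM and KO SSC at 12.4 and 14.4. WT BCSP libraries stood at 6.13 and 6.69 CPM and KO BCSP at 9.63 and 11.4. The 8 values separated by genotype, with the highest WT value at 8.65 CPM and the lowest KO value at 9.63. Zfr2 had the most even difference of the 5 higher genes, 0.66 ± 0.25 in SSC and 0.71 ± 0.25 in BCSP (0.78 without the library labelled WT BCSP round 2), and its 4 within-round differences ran from 0.52 to 0.79.

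Tle2 encodes a Groucho-family corepressor, which is recruited by transcription factors such as HES proteins. It stood at 11.9 and 8.16 CPM in WT SSC, 10.2 and 16.4 in KO SSC, 11.9 and 6.55 in WT BCSP and 15.8 and 21.2 in KO BCSP. KO and WT libraries overlapped in SSC, where KO round 1 lay below WT round 1. Its log2 fold change was 0.41 ± 0.34 in SSC and 1.002 ± 0.35 in BCSP, and 0.63 in BCSP without the library labelled WT BCSP round 2. The SSC value ran from 0.015 (without KO SSC round 2) to 0.70 (without WT SSC round 1) with 1 library left out. An antisense gene, Gm15917, shares 98 exon bases with it.

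Ankrd24 encodes an ankyrin-repeat protein of the rootlets of hair-cell stereocilia in the inner ear. In SSC it stood at 10.83 and 10.84 CPM in WT and at 10.98 and 20.6 in KO, so that KO round 1 hardly differed from WT. In BCSP the WT libraries stood at 11.3 and 9.85 CPM and the KO libraries at 16.2 and 19.6. Log2 fold changes were 0.54 ± 0.30 in SSC and 0.76 ± 0.30 in BCSP, and the BCSP value was 0.66 without the library labelled WT BCSP round 2. The SSC value was 0.0023 without KO SSC round 2 and 0.92 without KO SSC round 1.

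Aire, the regulator that drives expression of tissue-restricted antigens in thymic medullary epithelium, was the least abundant of the 10. It was counted at 2.18 and 2.43 CPM in WT SSC, 1.17 and 0.819 in KO SSC, 1.45 and 1.17 in WT BCSP and 0.822 and 0.394 in KO BCSP. These values came from 48 to 315 counts a library. All KO libraries lay below all WT libraries, as in 2.25% of tested genes, although the margin was small: the lowest WT value, 1.171 CPM, and the highest KO value, 1.165 CPM, came from different populations. The log2 fold change was -1.22 ± 0.52 in SSC and -1.11 ± 0.52 in BCSP, with the largest standard errors of the set. The BCSP value was -1.72 without KO BCSP round 1, -0.64 without KO BCSP round 2 and -1.25 without the library labelled WT BCSP round 2. Its exons share 67 bases with Dnmt3l on the opposite strand, 1.75% of their length. Of the thymic epithelial list, Foxn1, the defining factor of that tissue, stood at 0 to 0.246 CPM and Cldn4 at 0.0349 to 0.201. Krt14 reached 1.09 CPM and Krt5 0.706. Epcam, found in many epithelia, stood at 4.12 to 10.1 CPM, and Deaf1, a relative of Aire expressed in many tissues, at 28.7 to 35.02.

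Ppa1 encodes the cytosolic pyrophosphatase that splits the pyrophosphate released by biosynthesis. It stood at 470 and 464 CPM in WT SSC, 421 and 240 in KO SSC, 248 and 492 in WT BCSP and 194 and 204 in KO BCSP. Genotypes did not overlap within either population, but KO SSC round 1 lay above WT BCSP round 1. Log2 fold changes were -0.50 ± 0.34 in SSC and -0.90 ± 0.34 in BCSP, and the BCSP value was -0.32 without the library labelled WT BCSP round 2. The SSC value was -0.17 without KO SSC round 2 and -0.97 without KO SSC round 1.

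Mif encodes a cytokine that signals through CD74 with CD44. It stood at 197 and 144 CPM in WT SSC, 139 and 105 in KO SSC, 140.1 and 221 in WT BCSP and 122 and 91.6 in KO BCSP. The KO libraries all lay below the WT libraries. The log2 fold change was -0.48 ± 0.29 in SSC and -0.76 ± 0.29 in BCSP, and -0.39 in BCSP without the library labelled WT BCSP round 2. Without WT SSC round 1, the library with the highest blood markers, the SSC value was -0.25, and it was -0.32 without KO SSC round 2. Mif is the shortest of the 10, with 745 exon bases, and over both populations its value of -0.62 became -0.33 once the trend of fold change with exon length was subtracted.

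Cd24a encodes a glycosylphosphatidylinositol-anchored surface protein, used as a progenitor marker in many tissues and bound by Siglec receptors. It stood at 346 and 328 CPM in WT SSC and at 280 and 212 in KO SSC. In BCSP it stood at 242 and 342 CPM in WT and at 167 and 205 in KO. Each population separated by genotype, while KO SSC round 1 lay above WT BCSP round 1. The log2 fold change was -0.45 ± 0.27 in SSC and -0.65 ± 0.27 in BCSP, and -0.38 in BCSP without the library labelled WT BCSP round 2. The SSC value was -0.28 without KO SSC round 2.

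Pfkl encodes the liver form of phosphofructokinase, which catalyses the committed step of glycolysis. It stood at 219.9 and 179.9 CPM in WT SSC, 137 and 142 in KO SSC, 166 and 254 in WT BCSP and 165 and 125 in KO BCSP. In BCSP the round 1 libraries were almost equal, at 165.6 CPM in WT and 164.6 in KO. The log2 fold change was -0.52 ± 0.27 in SSC and -0.53 ± 0.27 in BCSP. Without both BCSP libraries of round 2 the BCSP value was -0.0049, and it was -0.19 without the library labelled WT BCSP round 2 alone. It was -0.81 without WT BCSP round 1 and -0.31 without KO BCSP round 2.

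**Figure D2:**
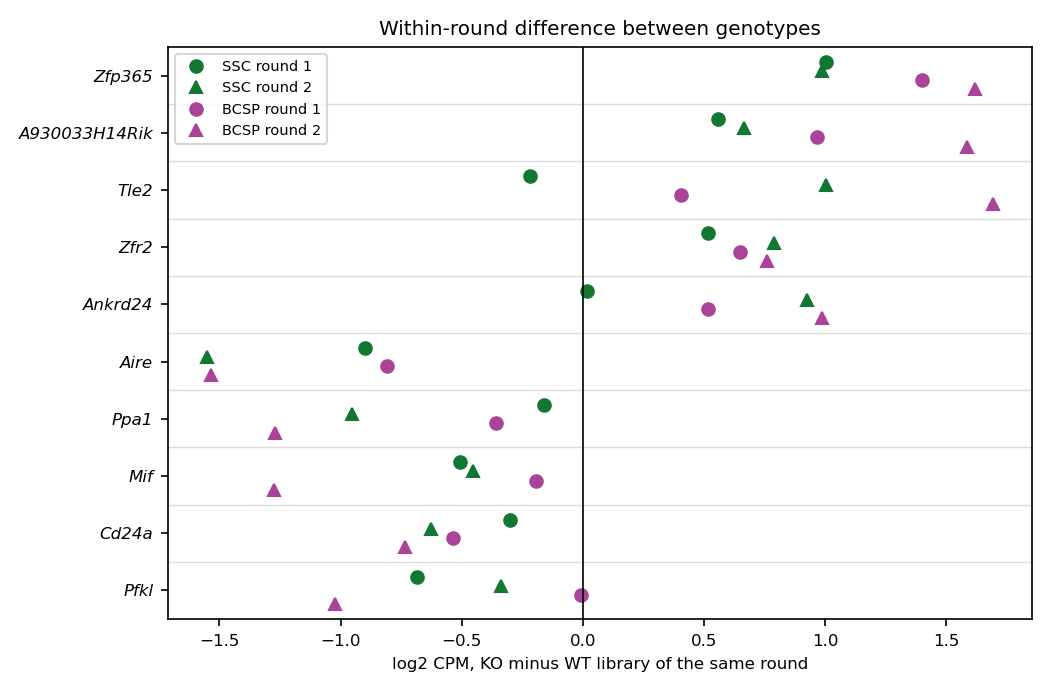
Difference in log2 CPM (prior count 2) between the KO and the WT library of the same population and round, 4 points a gene. Points lie on 1 side of 0 for 9 genes, Tle2 has 1 point below 0, and Ankrd24 in SSC round 1 and Pfkl in BCSP round 1 lie near 0.

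Read over all 4 within-round differences, 4 genes had only positive values (Zfp365, Zfr2, A930033H14Rik and Ankrd24), 5 had only negative values, and Tle2 had 3 of 4 above 0. Over all tested genes 10.6% had 4 positive and 10.8% had 4 negative differences. Since the members were picked on these contrasts, nothing is read from their counts. None of the 10 was called for genotype by edgeR at an adjusted p under 0.05, where 0.00451% of tested genes were called in SSC, 0.00451% in BCSP and 0.0135% over both populations. At an unadjusted p under 0.05 these shares were 1.2%, 6.19% and 7.91%. Round 2 gave the wider difference in BCSP for all 10 genes.

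Levels between genes can be compared only per length of exon. On that scale (mean CPM per kb of exon over the 8 libraries) Mif led with 195, before Ppa1 with 118, Cd24a with 103 and Pfkl with 26.0. The 5 genes counted higher in KO were all low, from 1.30 in Zfr2 to 3.18 in Zfp365, and Aire was lowest with 0.341. The 5 higher genes thus came from the weakly expressed ones, and 4 of the 5 lower genes from the abundant ones.

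**Figure D3:**
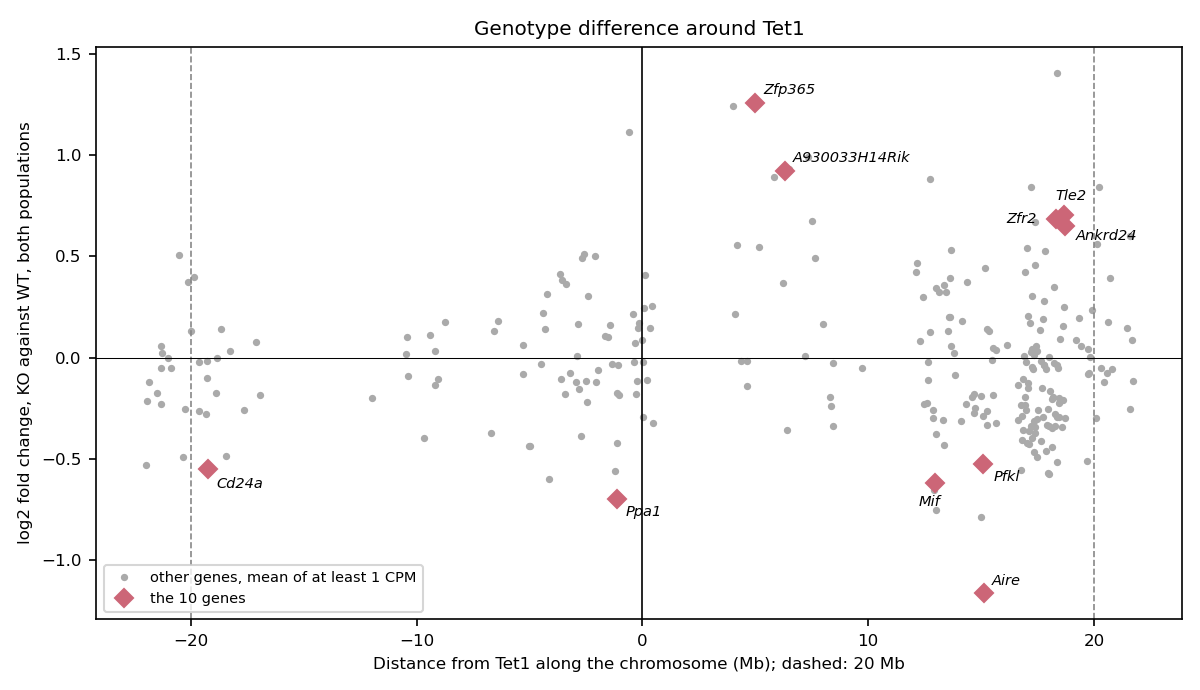
Log2 fold change of KO against WT over both populations against distance from Tet1 in Mb, for genes with a mean of at least 1 CPM; diamonds are the 10 genes, dots the other genes, and dashed lines the 20 Mb window. The diamonds, picked on KO against WT values, lie at the upper and lower edges of the cloud, with Zfp365 at 1.26 and Aire at -1.16. Dots near them spread to both sides of 0.

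The other genes of the same stretch were read by position alone. Within 20 Mb of Tet1 lie 432 tested genes, whose median log2 fold change was -0.0142 in SSC and 0.0139 in BCSP, against 0.0106 and 0.0078 over all tested genes. All 4 within-round differences were positive in 53 of the 432 (12.3%) and negative in 47 (10.9%), against 10.6% and 10.8% of all tested genes. All 4 KO libraries lay above all 4 WT libraries in 18 (4.17%) and below in 14 (3.24%). Over all tested genes these shares were 2.13% and 2.25%. In the window without the 10 members they were 3.55% and 2.61%, and on chromosome 10 beyond 20 Mb 3.03% and 2.71%. No gene of the window was called by edgeR for genotype in either population or over both. At an unadjusted p under 0.05 stood 5 of the 432 in SSC (1.16%), 37 in BCSP (8.56%) and 57 over both (13.2%). Among the 422 non-members these were 2 (0.474%), 29 (6.87%) and 47 (11.1%). The members were picked on these contrasts, so leaving them out lowers the shares by that choice. The shares were 1.2%, 6.19% and 7.91% of all tested genes, and 10.05% over both on chromosome 10 beyond 20 Mb.

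The nearest window was not the one with the most even pattern. Among the 67 tested genes up to 5 Mb below Tet1 the median over both populations was 0.007. Among the 25 genes up to 5 Mb above it was 0.25, and among the 24 genes from 5 to 10 Mb above, where A930033H14Rik lies, it was 0.53. Of these 24, 7 had 4 positive and 0 had 4 negative differences, against 10.6% and 10.8% of all tested genes. It is singled out here as the stretch of 5 Mb with the highest median. Its genes were also longer, with a median of 4686 exon bases against 3277 over all tested genes. The part of length in its values was not tested. Restricted to a mean of at least 1 CPM, the same 5 Mb held 16 genes with a median of 0.27. The 181 genes from 15 to 20 Mb, which include 5 members, had a median of -0.0456 and 17 genes with all differences in each direction.

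The members were picked on KO against WT values, so their ranks in the window follow from that choice. Of the 257 genes of the window with a mean of at least 1 CPM, Zfp365 had the second highest log2 fold change over both populations, 1.26 ± 0.23. The highest was Matk, a tyrosine kinase gene that starts 0.812 kb past the end of Zfr2, with 1.40 ± 0.43 from a mean of 1.20 CPM. 1110002J07Rik (1.24 ± 0.52), Tspan15 (1.11 ± 0.35), Slc16a9 (0.99 ± 0.35) and Ank3 (0.93 ± 0.33) stood between Zfp365 and A930033H14Rik (0.92 ± 0.23) at rank 7. Tle2, Zfr2 and Ankrd24 took ranks 11, 12 and 15. From the low end Aire was first, and Ppa1, Mif, Cd24a and Pfkl took ranks 4, 6, 12 and 13. Between them lay Trpm2, a calcium channel gene, at -0.79 ± 0.30 and Derl3, an endoplasmic reticulum gene, at -0.75 ± 0.44.

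Direct neighbours shared the direction in some places and not in others. Counting the 2 nearest tested protein-coding genes on each side of every member gave 35 genes that are not members. Of these, 14 had a log2 fold change over both populations above 0, 4 had 4 positive differences and 6 had 4 negative ones. Over all tested genes 51.6% lay above 0, 10.6% had 4 positive and 10.8% had 4 negative differences. The 35 pool neighbours of higher and lower members, so these counts do not show whether a neighbour shared its member's direction. Pfkl and Aire lie 19.9 kb apart. On the side of Pfkl, Trpm2, 16.4 kb away, had 4 negative differences, and Cfap410, 0.042 kb away, was at -0.29 ± 0.19 with 3 of 4 negative. Past Aire, Icosl, 25.7 kb away, was at 0.44 ± 0.35 and Gatd3a, 118 kb away, at -0.26 ± 0.20. Around Mif, Derl3 and Smarcb1, a chromatin remodelling gene, had 4 negative differences, with Smarcb1 at -0.38 ± 0.17. Around A930033H14Rik, Tmem26 (0.89 ± 0.34) and Ank3 had 4 positive differences, and the mitotic kinase gene Cdk1, between them, was at -0.36 ± 0.37. Rhobtb1, whose span holds A930033H14Rik, was at 0.37 ± 0.21 with 3 of 4 positive. Egr2, an abundant immediate-early gene 344 kb from Zfp365, had -0.0191 ± 0.16, and Arid5b, 180 kb on the other side, 0.55 ± 0.21. Beside Tle2, the family members Tle5 and Tle6, 8.20 kb and 0.059 kb from it, were at 0.16 ± 0.21 and 0.25 ± 0.27. Sirt6, which ends 0.743 kb before Ankrd24, was at -0.30 ± 0.23, and Sar1a, 6.13 kb from Ppa1, at -0.18 ± 0.17. The genes next to Tet1 itself showed Ccar1 at 0.09 ± 0.18 and Slc25a16 at -0.02 ± 0.22.

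**Figure D4:**
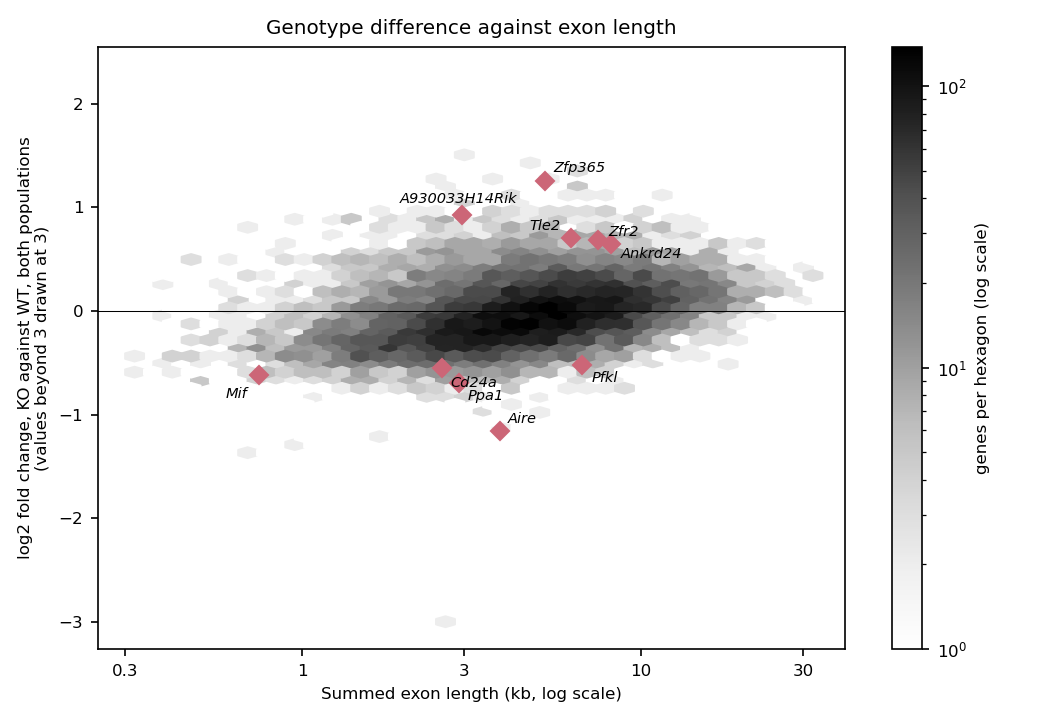
Log2 fold change of KO against WT over both populations against summed exon length in kb (log axis); shading counts genes with a mean of at least 1 CPM, diamonds are the 10 genes. The cloud tilts upward with length (Spearman 0.37 over 12636 genes), Mif lies at its short end and Zfr2 and Ankrd24 toward its long end.

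Genotype differences moved with gene length across the whole transcriptome. Over 12636 genes with a mean of at least 1 CPM, log2 fold change and exon length had a Spearman correlation of 0.21 in SSC, 0.40 in BCSP and 0.37 over both. These are correlations across genes within 1 comparison, and genes are not independent replicates. Of the 5 genes counted higher in KO, 4 have 5205 to 8142 exon bases and A930033H14Rik has 2969. Of the 5 lower genes, Mif, Cd24a (2580), Ppa1 (2902) and Aire (3825) are shorter and Pfkl has 6675. With the length trend subtracted, the values over both populations were 1.27 in Zfp365, 1.06 in A930033H14Rik, 0.68 in Tle2, 0.63 in Zfr2 and 0.58 in Ankrd24. In the lower genes they were -1.08 in Aire, -0.56 in Ppa1, -0.56 in Pfkl, -0.39 in Cd24a and -0.33 in Mif. No gene changed sign.

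The pathway partners of the members were read from lists, in which edgeR called 0 genes for genotype. Each list includes the member itself, which was picked for its value and so adds to the counts by that choice. Over all tested genes 51.6% lay above 0 over both populations, and 45.4% of those with a mean of at least 1 CPM. In the glycolysis list 15 of 20 rows were below 0 over both populations, with a median of -0.47. The median was 0.0169 over all tested genes and -0.0352 over those of at least 1 CPM, as all 20 rows are. The list names 19 genes, and Aldoa has a second row with a mean of 1.30 CPM. Pfkl (-0.53 ± 0.17) stood among Slc16a3, the lactate exporter (-0.82 ± 0.20), Pgam1 (-0.66 ± 0.18) and Gapdh (-0.58 ± 0.21). Those partners lie on other chromosomes. Hk1, on chromosome 10 like Pfkl, went the other way at 0.21 ± 0.16. So did Pfkfb3 (0.34 ± 0.20), Pfkfb4 (0.33 ± 0.17), Hk2 (0.17 ± 0.23) and Slc2a1 (0.03 ± 0.22). The other phosphofructokinase genes Pfkm and Pfkp were at -0.24 ± 0.15 and -0.0044 ± 0.21. Gapdh, like Pfkl, had its highest value in the library labelled WT BCSP round 2: it was at 1440 CPM there and at 593 to 1000 CPM in the other 7.

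Of the 7 genes of the MIF axis, 5 lay below 0 over both populations, with a median of -0.30. Cd74, the receptor, was at -0.68 ± 0.35 from a mean of 1.15 CPM, and Ddt, the paralog of Mif, at -0.30 ± 0.29, while Cd44 was at 0.89 ± 0.30. In the pyrophosphate list 5 of 9 genes lay above 0. There Ppa1 stood apart in direction from Slc20a1, a phosphate transporter gene (0.62 ± 0.19), and Ank, a pyrophosphate exporter gene (0.37 ± 0.14). The mitochondrial pyrophosphatase gene Ppa2 was at -0.24 ± 0.19. Of the 12 rows of Groucho corepressors and their partners 7 lay above 0, with a median of 0.05. Tle3, at a mean of 54.9 CPM, was at 0.29 ± 0.13 and Tle1 at -0.10 ± 0.20, both nearer 0 than Tle2. Per kb of exon Tle5 stood highest of the Tle genes, at 10.5 against 4.71 in Tle3. In the DZF list 3 of 5 genes lay above 0, and Zfr, at 125 CPM, was at 0.06 ± 0.15, against 0.68 ± 0.16 in Zfr2. Of Zfp365 and its DISC1 partners 3 of 5 lay above 0. Of the 3 tested genes of the CD24 list, Cd24a included, 2 lay below 0. Of the 7 tested thymic epithelial genes, Aire included, 5 lay above 0, with a median of 0.70. That median was Cldn4, at 0.70 ± 0.95 from a mean of 0.13 CPM. Foxn1, Krt5 and Krt14, also above 0, had means of only 0.09, 0.29 and 0.42 CPM. Of the better counted genes Epcam was at 0.32 ± 0.24 and Deaf1 at -0.0033 ± 0.14. Of the 3 stereocilia rootlet genes, Ankrd24 included, 2 lay above 0, with Triobp at 0.18 ± 0.15.

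The comparison of SSC with BCSP did not enter the choice of genes and could be tested. Over both genotypes, edgeR called none of the 10 members at an adjusted p under 0.05, against 0.00451% of all tested genes (1 gene, Eng). At an unadjusted p under 0.05, 3 of the 10 were reached, against 3.71% of tested genes. Aire was higher in SSC by a log2 fold change of 0.76 ± 0.34 (unadjusted p = 0.0422), with 1.65 ± 0.78 CPM (SD, n = 4) in SSC and 0.96 ± 0.46 in BCSP. Ppa1 was higher in SSC by 0.53 ± 0.23 (unadjusted p = 0.0381), with 399 ± 108 and 284 ± 140 CPM, and Zfr2 by 0.38 ± 0.16 (unadjusted p = 0.0345), with 10.96 ± 2.96 and 8.45 ± 2.47 CPM. The edgeR adjusted p was 0.99998 for each, and SSC and BCSP libraries overlapped in all 10 genes. The remaining 7 lay between -0.18 (Tle2) and 0.31 (Cd24a). The difference of the genotype effect between populations (SSC minus BCSP) was largest in A930033H14Rik at -0.61 ± 0.46 and Tle2 at -0.60 ± 0.48, and edgeR called 0 genes for it, with 1.27% at an unadjusted p under 0.05.

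Round 2 against round 1 was the other contrast that did not choose the genes. With 1 mean per group and a round term, edgeR called 390 genes, 1.76% of those tested (1.1% higher and 0.664% lower in round 2, and 11.4% at an unadjusted p under 0.05), and none of the 10. Zfp365 came nearest: it was higher in round 2 in all 4 groups, as were 11.0% of tested genes, by 0.52 ± 0.17 (unadjusted p = 0.00858, edgeR adjusted p = 0.191). Its round difference was 0.78 in WT SSC, 0.76 in KO SSC, 0.16 in WT BCSP and 0.37 in KO BCSP, in log2 CPM. The other 9 had edgeR adjusted p values of at least 0.737. In Mif the round 2 library was higher by 0.66 in WT BCSP, and lower in the other 3 groups, by -0.40 to -0.45. Leaving out 1 WT BCSP library leaves that group with 1 library, which its own mean fits. The round term then rests on the other 3 groups, so leaving out either library gives nearly the same estimate. Without round 1 and without the library labelled round 2 it was 0.63 and 0.64 in Zfp365. It was -0.42 and -0.41 in Mif, and 0.39 and 0.40 in Ankrd24. Many more than 390 genes were then called for round, these among them, so calls for round depend on the WT BCSP group.

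Across the 8 libraries the members correlated by direction, which follows in part from picking them on KO against WT values. Pearson correlations of log2 CPM were 0.96 between Cd24a and Ppa1, 0.93 between Mif and Pfkl, 0.89 between Zfp365 and Ankrd24 and 0.88 between Ankrd24 and Tle2, and -0.88 between A930033H14Rik and Mif. The libraries share genotype, round and the length trend, so these are descriptions. The gene most like Zfp365 among 12639 genes was Kdm6bos, antisense to Kdm6b (r = 0.99), and 134 genes had r above 0.9. For Mif it was S100a11 (r = 0.997).
Psma7, a proteasome gene, and Pgk1, a glycolytic gene, came next (both r = 0.99), and 694 genes had r above 0.9 with Mif, the most of any member. Pfkl was closest to Tufm (r = 0.99), Ppa1 to Xlr3c (r = 0.98), Cd24a to Pygl (r = 0.99) and Aire to Cad (r = 0.98). Tle2 was closest to Agrn (r = 0.99), A930033H14Rik to Has2 (r = 0.98), Ankrd24 to Sez6l (r = 0.97) and Zfr2 to Gm48604 (r = 0.96). Zfr2 had the fewest genes above 0.9, 13, with its fellow chromosome 10 members all under that value. None of these closest genes lies on chromosome 10.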

How the data were processed

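Per the labels, total RNA of the sorted cells was sequenced as paired reads of 150 bases. The authors deposited whole-number counts per gene for the 8 libraries, with no normalisation. The submitters' processing notes name STAR, featureCounts, DESeq2 and the build mm10. Versions, annotation release and strand of counting are not given in the sources used here. Columns headed SCC were taken for SSC, and those headed BCP for BCSP.

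Positions, exon lengths and overlaps came from GENCODE release M21 (GRCm38), matched for 55230 of 55471 entries. Genes were kept by filterByExpr (minimum count 10, minimum total 15), which left 22153 genes holding 99.9854% of counts. edgeR 4.0.16 in R 4.3.3 fitted a robust quasi-likelihood model with TMM scaling. Genotype in each population came from 1 mean per group, genotype over both populations and population came from an additive model, and round was added to the group means. P-values were Benjamini-Hochberg adjusted over the 22153 genes, and 0.05 was the limit for a call. Within-round differences used log2 CPM with a prior count of 2. At these totals, counting error is smaller than the spread between libraries for well counted genes. It weighs more in genes with few counts, such as Aire with 48 to 315 counts a library.

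Alternatives were RLE scaling, DESeq2 1.42.0, no filter, the round as a block, each library left out, other window widths, only genes of at least 1 CPM, and a prior count of 0.5. Subtracting a lowess trend with exon length and leaving out both BCSP libraries of round 2 were added after seeing the data.

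Genes named beside the 10 were the 2 nearest tested protein-coding genes on each side, genes of the window with 4 differences of 1 sign and at least 1 CPM, the genes with the highest correlation, and the lists. The gene ranks in the window were added to this rule. The members and the lists were chosen with earlier results of these data known. Deviations from group means correlated between groups of the same round at 0.059 to 0.645. Libraries of a group differed far beyond sampling noise (chi-square per degree of freedom 142 to 348), so none was a copy. The edgeR fits were tested on simulated data.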

Additional observations from a re-analysis of the deposited data

How the results depend on the processing

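No member changed the sign of its genotype difference, in either population or over both, under any alternative run. Leaving out 1 library moved the SSC value of Tle2 to as little as 0.015 and that of Ankrd24 to 0.0023, both without KO SSC round 2. With each library left out in turn, SSC against BCSP reversed within these ranges: Zfp365 -0.36 to 0.0613, A930033H14Rik -0.28 to 0.0329, Ankrd24 -0.24 to 0.11, Mif -0.0556 to 0.23, Pfkl -0.17 to 0.0766, Tle2 -0.38 to 0.0095. Round 2 against round 1 reversed within these: A930033H14Rik -0.32 to 0.0436, Cd24a -0.062 to 0.24, Pfkl -0.21 to 0.12, Ppa1 -0.25 to 0.35, Tle2 -0.35 to 0.20. None of the values in these ranges was called.

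Counts of called genes depended on the tool and the filter. The main counts were 1 in SSC, 1 in BCSP, 3 over both, 1 for population, 390 for round and 0 for the interaction. DESeq2 called 9, 20, 103, 39 and 937 for the first 5, and 0 for the interaction. With no filter on low counts they were 4, 38, 234, 66 and 861. The replicate block (round) gave 2, 3, 28 and 2 genes, and 2 for the interaction; the titles share only a round number, in 2 rounds, so these libraries are not shown to be paired. With each library left out, the ranges were 1 to 4, 1 to 2, 1 to 12, 1 to 3, 275 to 3909 and 0 to 0. Without both BCSP libraries of round 2, 11 genes were called over both populations.

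The median log2 fold change within 20 Mb of Tet1 was -0.0142 in SSC, 0.0139 in BCSP and 0.0022 over both. In SSC it was -0.0241 with RLE scaling, -0.0236 with DESeq2, 0.0 with no filter, -0.0035 with the replicate block, 0.0949 within 10 Mb, 0.0609 within 5 Mb and -0.0026 without the length trend. In BCSP it was 0.1418 within 10 Mb, 0.0767 within 5 Mb, -0.0628 in genes of at least 1 CPM and 0.1301 without the length trend; over both it was 0.1307, 0.0924, -0.0379 and 0.0583. Leaving out 1 library gave -0.0432 to 0.0406, -0.0513 to 0.0578 and 0.0024 to 0.0469. The causes were not tested.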

Other observations

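Of the 3 genes that edgeR called over both populations, Ulbp1, a ligand gene of the natural killer cell receptor NKG2D, is on chromosome 10, and it lies 55.3 Mb from Tet1, outside the window. Its log2 fold change was -2.94 ± 0.41 (edgeR adjusted p = 0.0427). The other two were Trf, the transferrin gene on chromosome 9 (-2.98 ± 0.21, edgeR adjusted p = 3.81e-05), and Cd59a, a complement regulator gene on chromosome 2 (-2.55 ± 0.35, edgeR adjusted p = 0.0427).

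Further genes within 20 Mb of Tet1 had 4 within-round differences of 1 sign and a mean of at least 1 CPM, as descriptions with no test. On the higher side Susd2, a gene of a membrane protein with a sushi domain, stood at 0.443 and 0.972 CPM in WT SSC, 1.01 and 1.69 in KO SSC, 1.01 and 0.830 in WT BCSP and 1.89 and 1.38 in KO BCSP. On the lower side Lrrc20, next to Ppa1, stood at 8.01 and 7.12 CPM in WT SSC, 5.38 and 4.66 in KO SSC, 5.998 and 7.57 in WT BCSP and 5.75 and 3.68 in KO BCSP, and its KO libraries all lay below its WT libraries. Lsm7, an RNA-processing gene 17.9 Mb from Tet1, and Atg5, an autophagy gene on the side of Cd24a, did so too, at -0.57 ± 0.20 and -0.49 ± 0.18 over both populations. Edar, the ectodysplasin receptor gene, was at -1.07 ± 0.57 in SSC and -0.14 ± 0.56 in BCSP, and its KO and WT libraries overlapped.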
